A study of Mus musculus with 12 samples.

Results

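The early transcriptional answer of mouse bone marrow macrophages to lipopolysaccharide (LPS) was read from 4 of the 12 arrays of the series, chosen by their labels for genotype and treatment. The WT LPS 1 h group holds 2 arrays of wild-type macrophages given LPS at 1 µg/ml for 1 h, and the WT unstimulated group holds 2 arrays of wild-type macrophages that received no LPS and were kept for 4 h. Time in culture was thus not matched, and its effect and that of LPS cannot be told apart. The other 8 arrays, 2 a group, are wild-type macrophages after 4 h of LPS (WT LPS 4 h) and macrophages of mice with a kinase-dead IRAK4 (KD) after 1 h of LPS, after 4 h of LPS and unstimulated. The KD unstimulated macrophages were also kept for 4 h, so time in culture was not matched at 1 h in KD either. All cultures were differentiated from bone marrow in a macrophage serum-free medium supplemented with calf serum and with medium conditioned by L-929 cells, a source of macrophage colony-stimulating factor, and the amplified, biotin-labelled RNA was hybridised to 3′ expression arrays. The design text calls the arrays of a group biological replicates without saying whether they came from separate animals, so p-values measure the spread between these arrays, which may be technical.

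LPS, the lipid-anchored sugar that coats Gram-negative bacteria, binds TLR4 with its partners MD-2 and CD14 on macrophages. TLR4 signals through MyD88 and the kinases IRAK4 and IRAK1 to NF-κB and the MAP kinases, and through TRIF to IRF3 and type I interferon. Genes whose promoters are already open answer without new protein synthesis, first the immediate early transcription factors and a first wave of cytokines and chemokines, and among the products are inhibitors that limit the same pathway. Transcripts that are short-lived or actively degraded can fall in the same window. Below, rose and fell mean higher and lower in WT LPS 1 h than in WT unstimulated, which was kept for 4 h. Decay was not measured.

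Signals on all 12 arrays had been scaled to a trimmed mean of 150 units, and the median signal was 21.6 and 21.3 on the WT LPS 1 h arrays, against 22.0 and 21.8 on the WT unstimulated arrays. Spearman's correlation between the replicates over all probe sets was 0.895 in WT LPS 1 h and 0.913 in WT unstimulated. The ratio of the 3′ to the 5′ Gapdh control probe set was 1.09 and 1.17 (log2) in WT LPS 1 h, against 0.81 and 1.02 in WT unstimulated, and that of Actb was 2.57 and 2.5, against 2.22 and 2.48. The signals of 24 macrophage identity genes summed to 49034 and 53639 in WT LPS 1 h, against 46229 and 47279 in WT unstimulated, with Cd14 higher and Cd33 lower. Of 9 neutrophil genes on the array 4 were tested. Their sums were 1416 and 1568 in WT LPS 1 h, against 1323 and 1216 in WT unstimulated, and were carried by S100a8, at up to 867.9 units, and Mmp8. Mpo, Prtn3, Ngp, Ltf and S100a9, too dim to be tested and not in the sums, stayed at or under 10.9 units. Stromal genes such as Sparc and Col1a1 were measured at sums of 6855 and 6703 in WT LPS 1 h, against 5976 and 5891 in WT unstimulated. The highest signal of any T and NK cell, B cell, dendritic cell, erythroid or mast cell marker on these 4 arrays was 117.7 units, for Ebf1, and no marker of these classes or of neutrophils passed the test. A lower signal in such cultures can mean fewer cells of a type or less RNA per cell, which cannot be told apart.

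Of 12914 genes tested, 911 (7.05%) passed at an adjusted p under 0.05 in limma: 415 (3.21%) were higher and 496 (3.84%) lower in WT LPS 1 h than in WT unstimulated macrophages. At this threshold more genes fell than rose, but among changes of at least 2-fold 151 genes rose and 96 fell. The median log2 difference over all genes was -0.03, on the scale of log2(signal + 4.4) used throughout, which understates the change of dim genes. The decreases leaned more on single arrays: 187 of the 415 increases and 106 of the 496 decreases were called in each of 12 fits with 1 of the 12 arrays left out, and among the changes of at least 2-fold the counts were 122 of 151 and 35 of 96. Leaving out replicate 2 of WT LPS 1 h gave 246 genes higher and 213 lower, leaving out WT unstimulated replicate 1 gave 235 and 161, and leaving out WT unstimulated replicate 2 gave 280 and 219.

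The best-known answer was present and is given as counts. Of 33 immediate early genes tested, 25 rose and 1 fell (median log2 difference 1.46), of 21 genes of the NF-κB feedback circuit 13 rose (median 1.08), of 21 cytokines 8 rose (median 0.80) and of 25 chemokines 11 rose (median 0.44), against 3.21% of all genes higher. The only decrease in these 4 lists was the 1 among the immediate early genes. The remaining account concerns genes outside these lists. Beyond the largest changes of each list, the members named were picked after their values had been seen.

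Outside the known lists the largest increase was that of Socs3, the feedback inhibitor of JAK-STAT signalling from cytokine receptors. Its signal was 181.7 and 137.0 in WT LPS 1 h, against 1.6 and 1.2 in WT unstimulated macrophages, a log2 difference of 4.81 ± 0.34 (SE, limma adjusted p = 1.4e-08). Of 2 further, brighter probe sets, 1 gave 2196.3 and 2529.3 units in WT LPS 1 h, against 94.0 and 83.5 in WT unstimulated (4.67), and the other a log2 difference of 4.93, so Socs3 was near the floor in WT unstimulated macrophages at 1 of its 3 probe sets. Nlrp3, the sensor protein of an inflammasome that matures interleukin-1β, had 639.8 and 524.1 units in WT LPS 1 h, against 51.0 and 29.7 in WT unstimulated (log2 difference 3.75 ± 0.20, limma adjusted p = 2.4e-10). Pde4b, which breaks down cyclic AMP, had 2395.3 and 2213.0 units in WT LPS 1 h, against 202.1 and 189.6 in WT unstimulated (3.53 ± 0.11, limma adjusted p = 7.63e-14). Ccrl2, an atypical chemokine receptor that binds chemerin, had 984.7 and 1222.5 units in WT LPS 1 h, against 111.4 and 81.1 in WT unstimulated (3.47 ± 0.15, limma adjusted p = 9.84e-12). In all 4 genes the replicates lay far closer to each other than the groups did.

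Olr1, a scavenger receptor for oxidised low-density lipoprotein, had 98.2 and 71.1 units in WT LPS 1 h, against 1.3 and 7.0 in WT unstimulated (log2 difference 3.45 ± 0.33, limma adjusted p = 1.26e-06). Rab11fip1, which binds Rab11 on recycling endosomes, had 319.6 and 332.8 units, against 47.7 and 54.2 (2.58 ± 0.17, limma adjusted p = 4.81e-09). Cd69, a lectin of early leukocyte activation that retains cells in tissue, had 648.4 and 722.1 units, against 149.9 and 108.7 (2.38 ± 0.15, limma adjusted p = 3.31e-09). These 3 genes encode membrane or membrane-traffic proteins. Mefv, which encodes pyrin, the sensor of another inflammasome, had 67.9 and 63.0 units in WT LPS 1 h, against 3.2 and 9.9 in WT unstimulated (2.74 ± 0.45, limma adjusted p = 0.000695). Arid5a, an RNA-binding protein that stabilises Il6 mRNA, had 64.1 and 43.3 units in WT LPS 1 h, against 1.7 and 6.2 in WT unstimulated (2.83 ± 0.46, limma adjusted p = 0.000561). Trem1, a receptor that amplifies inflammatory signalling, had 91.5 and 172.6 units in WT LPS 1 h, against 20.9 and 21.6 in WT unstimulated (2.34 ± 0.39, limma adjusted p = 0.000699). The 15 largest increases were each called in all 12 fits with 1 array left out. The WT LPS 4 h arrays were higher again than the WT LPS 1 h arrays for Nlrp3 (2.03, limma adjusted p = 7.91e-07), Ccrl2 (1.12), Olr1 (1.77) and Rab11fip1 (1.49), and lower for Trem1 (-1.74, limma adjusted p = 0.00368) and Zfp36 (-1.43), while the differences of Pde4b (0.10) and Socs3 (-0.13) did not pass the test.

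**Figure D1:**
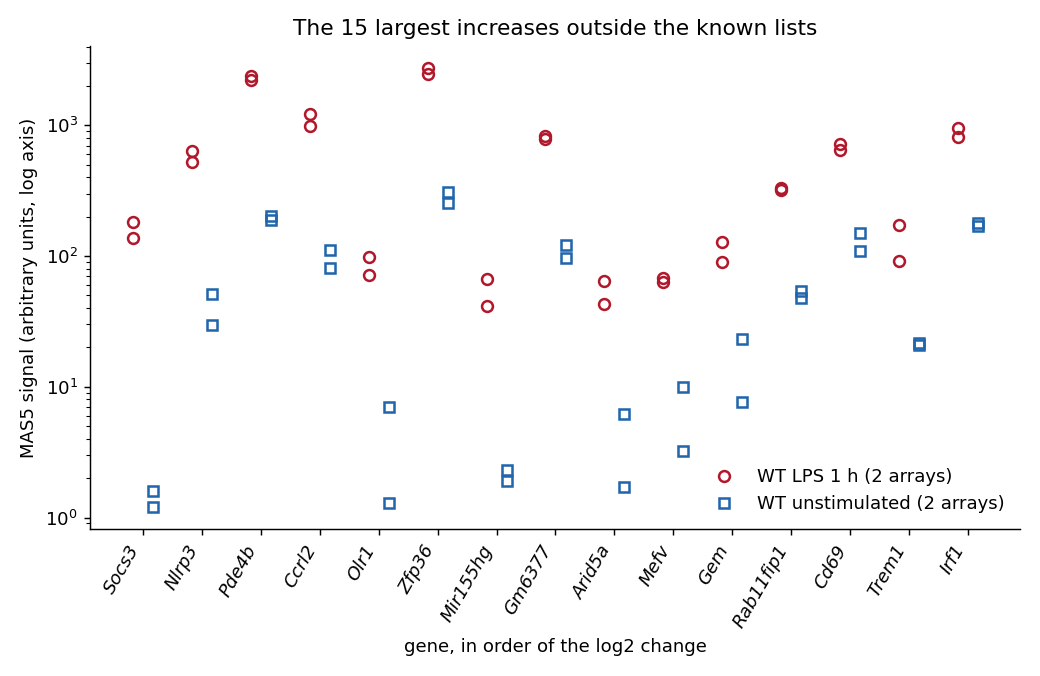
Signal (y axis, arbitrary units, log scale) of the 15 largest increases outside the known lists (x axis, in order of the log2 difference); circles are the 2 WT LPS 1 h arrays and squares the 2 WT unstimulated arrays. Only genes whose groups do not overlap were eligible. Socs3, at 181.7 and 137.0 units in WT LPS 1 h against 1.6 and 1.2 in WT unstimulated, has the largest log2 difference.

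Among them was the precursor of a microRNA. Mir155hg, the host transcript of miR-155, had 67.2 and 41.6 units in WT LPS 1 h, against 2.3 and 1.9 in WT unstimulated (log2 difference 3.14 ± 0.53, limma adjusted p = 0.000881). The probe set measures the host RNA, not the mature miRNA. miR-155 is known for repressing inhibitors of inflammatory signalling, such as Socs1 and Inpp5d. The mature sequence, shown for its seed (bases 2 to 8, in capitals), is RefSeq's and lies at chr16:84714143-84714165 on the plus strand of GRCm38.p6:
mmu-miR-155-5p: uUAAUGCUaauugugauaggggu

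Some receptors by which macrophages sense microbes and mediators rose. Of 51 pattern recognition, Fc and scavenger receptors tested, 8 rose and none fell (median log2 difference 0.11), against 3.21% of all genes. Tlr2, the receptor of bacterial lipoproteins, had 588.6 and 727.6 units in WT LPS 1 h, against 159.0 and 166.5 in WT unstimulated (1.98 ± 0.13, limma adjusted p = 3.46e-09), and Clec4e, the receptor of mycobacterial cord factor, had 2648.0 and 2896.7, against 1070.1 and 1008.9 (1.41 ± 0.09). Of 35 G protein-coupled receptors 6 rose and 2 fell, against 3.84% of all genes lower. Gpr84, a receptor of medium-chain fatty acids, had 183.9 and 161.5 units, against 31.5 and 40.2 (2.14 ± 0.34), with smaller increases of the formyl peptide receptor Fpr2 (0.78) and the prostaglandin E2 receptor Ptger4 (0.57), while the sphingosine-1-phosphate receptor S1pr2 fell by 0.93 ± 0.12. The count of pattern receptors was 5 without WT LPS 1 h replicate 2.

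Promoter windows of a few genes that rose are shown for the motif letters they hold; a motif match is a description of letters, not a binding site. Each window runs from 250 bases before to 50 bases after the annotated start (RefSeq, GRCm38.p6), written 5′ to 3′ along the gene's strand, with matches in capitals. The Tlr2 window, chr3:83841559-83841858 on the minus strand, holds the NF-κB-like letters GGGNNNTTC on either strand at -173 and -31 from the start. The Gpr84 window, chr15:103310389-103310688 on the minus strand, holds the same motif at -134 and -37.
Tlr2: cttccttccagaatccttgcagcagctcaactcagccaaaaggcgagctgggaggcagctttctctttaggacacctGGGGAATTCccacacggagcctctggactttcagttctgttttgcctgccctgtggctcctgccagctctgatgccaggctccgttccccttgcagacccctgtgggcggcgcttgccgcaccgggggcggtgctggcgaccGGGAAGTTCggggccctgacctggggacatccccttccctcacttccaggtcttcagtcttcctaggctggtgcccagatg
Gpr84: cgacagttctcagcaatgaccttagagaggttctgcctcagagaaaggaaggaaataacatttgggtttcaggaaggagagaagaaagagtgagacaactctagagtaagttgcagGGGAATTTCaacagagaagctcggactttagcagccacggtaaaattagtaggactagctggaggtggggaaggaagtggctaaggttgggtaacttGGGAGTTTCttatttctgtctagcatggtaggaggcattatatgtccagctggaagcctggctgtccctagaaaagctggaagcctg

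Inhibitors and modifiers of signalling changed in both directions. Of 96 kinases, phosphatases and regulators of Ras tested, 11 rose and 8 fell (median log2 difference 0.06), against 3.21% of all genes higher and 3.84% lower. Pim1, a constitutively active serine/threonine kinase that is regulated by its level, had 3114.9 and 3509.7 units in WT LPS 1 h, against 783.7 and 754.8 in WT unstimulated (2.10 ± 0.09, limma adjusted p = 8.23e-12). Its relative Pim3 rose by 1.30 ± 0.22, Map3k8, the kinase that activates the ERK arm below TLR4, by 1.05, Errfi1, an inhibitor of the EGF receptor, by 0.94 and the PI3K-dependent kinase Sgk1 by 0.84 ± 0.08. The opposite held for Map3k1, a MAP kinase kinase kinase upstream of JNK, with 800.2 and 679.6 units in WT LPS 1 h, against 1874.5 and 1942.7 in WT unstimulated (-1.37 ± 0.14, limma adjusted p = 3.05e-06); the WT LPS 4 h arrays were lower again by a log2 difference of -1.11 (limma adjusted p = 1.39e-05). Fits with 1 array left out called 4 members lower without either WT LPS 1 h array, 2 without WT unstimulated replicate 1 and 3 without WT unstimulated replicate 2, whereas 9 to 11 were higher over all 12 such fits.

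Of 64 ubiquitin ligases and deubiquitinases, 7 rose and 3 fell, against 3.21% of all genes higher and 3.84% lower. Trim13, a membrane-bound ubiquitin ligase of the endoplasmic reticulum, had 654.5 and 742.1 units in WT LPS 1 h, against 207.9 and 170.3 in WT unstimulated (1.86 ± 0.14, limma adjusted p = 3.63e-08), and Rnf19b rose by 1.21, while the deubiquitinase Usp2 had 271.0 and 266.2 units, against 510.2 and 544.9 (-0.96 ± 0.14, limma adjusted p = 0.000177). Among 39 genes of mRNA decay and other RNA-binding regulators 5 rose and 4 fell, beside the same shares. The endonuclease Zc3h12a (Regnase-1), which cleaves cytokine mRNAs, had 374.1 and 604.0 units, against 128.5 and 84.8 (2.14 ± 0.22, limma adjusted p = 3.16e-06), and the related Zc3h12c rose by 1.30 ± 0.20. Zfp36 (tristetraprolin), which directs mRNAs with AU-rich elements to decay, had 2755.8 and 2490.4 units, against 252.8 and 311.9 (3.20 ± 0.11). Other decay factors fell. Edc3, an enhancer of decapping, had 52.6 and 55.6 units, against 132.9 and 128.5 (-1.21 ± 0.21, limma adjusted p = 0.000956), and the deadenylase subunit Cnot6l (-0.56) and Rc3h2, which encodes Roquin-2 (-0.70), passed the test as well. Without WT unstimulated replicate 1 the ubiquitin genes higher numbered 4 and the decay genes higher 3, and without WT LPS 1 h replicate 2 the decay genes higher also numbered 3.

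The Zfp36 promoter window, chr7:28379179-28379478 on the minus strand, is shown for its CArG box, the motif that serum response factor binds, at -58.
Zfp36: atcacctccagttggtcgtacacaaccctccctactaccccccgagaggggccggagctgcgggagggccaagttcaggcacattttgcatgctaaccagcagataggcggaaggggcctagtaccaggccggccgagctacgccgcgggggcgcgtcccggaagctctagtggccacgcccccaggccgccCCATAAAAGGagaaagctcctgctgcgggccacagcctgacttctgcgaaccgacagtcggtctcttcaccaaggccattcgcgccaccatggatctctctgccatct

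Macrophage and growth-linked transcription factors outside the immediate early list changed in both directions, 11 of 84 being higher and 10 lower (median log2 difference 0.01), against 3.21% of all genes higher and 3.84% lower. Prdm1 (Blimp-1), a repressor, had 242.8 and 276.0 units in WT LPS 1 h, against 55.2 and 58.6 in WT unstimulated (2.10 ± 0.21), and Cebpb, a basic leucine zipper activator of cytokine genes, had 631.4 and 767.1, against 219.6 and 250.1 (1.55 ± 0.14). The aryl hydrocarbon receptor Ahr rose by 1.00. Among those that fell were Hhex, a haematopoietic homeobox repressor with 600.2 and 510.1 units, against 1097.2 and 1010.0 (-0.92 ± 0.12, limma adjusted p = 8.22e-05), and Cebpg, the truncated partner of the C/EBP family (-0.70). Klf3, a repressor of the Krüppel-like family, had 534.8 and 452.9 units, against 1097.1 and 935.8 (-1.04 ± 0.12), but its other probe sets were not called. Cebpd (-0.81) and Irf8 (-0.59), a determinant of the macrophage lineage, fell in the full fit but not in every fit with 1 array left out. In this list, leaving out WT LPS 1 h replicate 2 or WT unstimulated replicate 1 gave 6 higher and 5 lower, and leaving out WT unstimulated replicate 2 gave 7 and 5. From other lists, Id3, an inhibitor of basic helix-loop-helix factors, had 368.0 and 384.4 units, against 133.5 and 117.9 (1.55), and was lower in WT LPS 4 h than in WT LPS 1 h (-1.90, limma adjusted p = 4.52e-07), and the leucine zipper repressor Nfil3 of the clock list rose by 1.41.

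The Prdm1 promoter window, chr10:44458699-44458998 on the minus strand, is shown for its AP-1 letters TGANTCA at -48.
Prdm1: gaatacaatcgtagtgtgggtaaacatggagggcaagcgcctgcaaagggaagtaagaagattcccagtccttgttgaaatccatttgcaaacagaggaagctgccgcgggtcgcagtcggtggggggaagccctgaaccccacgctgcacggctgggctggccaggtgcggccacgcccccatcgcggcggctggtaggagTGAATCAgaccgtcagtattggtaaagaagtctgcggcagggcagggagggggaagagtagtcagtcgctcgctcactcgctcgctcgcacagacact

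Part of the interferon-induced genes had risen by 1 h. Of 41 tested, 17 were higher and none lower (median log2 difference 0.47), against 3.21% of all genes higher and 3.84% lower. In 32 of 41 both WT LPS 1 h arrays lay above both WT unstimulated arrays, as they did in 22.3% of all genes. Ifit1, which binds foreign RNA, had 268.7 and 320.0 units in WT LPS 1 h, against 103.2 and 102.7 in WT unstimulated (1.47), and the WT LPS 4 h arrays were higher again by 3.00 (limma adjusted p = 2.77e-11). The GTPase Iigp1 had 40.7 and 35.4 units, against 0.7 and 11.6 (2.23), and Ifit3 (1.25), Parp14 (0.90), Xaf1 (0.77), Irf9 (0.68) and Rsad2 (0.67) also passed. The count fell to 10 without WT LPS 1 h replicate 2 or WT unstimulated replicate 1, to 9 in a fit of the 4 arrays alone and to 4 with a variance prior that did not follow mean signal.

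Several enzymes that make mediators or handle oxidants rose. Of 31 inflammatory enzymes and effectors 9 rose and 2 fell (median log2 difference 0.33), against 3.21% of all genes higher and 3.84% lower. Acod1, which makes itaconate from a citric acid cycle intermediate, had 3638.0 and 3918.5 units in WT LPS 1 h, against 866.5 and 806.5 in WT unstimulated (2.17), and Arg2, the mitochondrial arginase, had 703.9 and 800.1, against 290.1 and 267.9 (1.41). The prostaglandin pathway rose at both of its inducible steps: Ptgs2 (cyclooxygenase-2) had 4750.3 and 4943.8 units, against 2067.8 and 1872.6 (1.30), and Ptges had 202.9 and 276.6, against 101.6 and 103.6 (1.17). Of 29 redox genes and targets of the oxidative stress factor NRF2, 6 rose and none fell (median 0.23), again beside 3.21% and 3.84%. Sqstm1 (p62), an autophagy receptor, had 1302.1 and 1360.8 units, against 375.0 and 406.1 (1.76 ± 0.15; a further probe set gave 0.49), and Srxn1 (sulfiredoxin), which restores oxidised peroxiredoxins, had 3449.9 and 3817.5, against 2097.0 and 2056.5 (0.80 ± 0.10, limma adjusted p = 3.64e-05). Smaller increases were seen for Gclm (0.74) and Txnrd1 (0.49), which supply glutathione and reduce thioredoxin. Sod2, the mitochondrial superoxide dismutase, rose by 1.47 ± 0.10.

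The Srxn1 window, chr2:152105274-152105573 on the plus strand, holds TGANTCA at -102 and -45, and the Acod1 window, chr14:103046762-103047061 on the plus strand, holds the TATA letters TATAAA at -28.
Srxn1: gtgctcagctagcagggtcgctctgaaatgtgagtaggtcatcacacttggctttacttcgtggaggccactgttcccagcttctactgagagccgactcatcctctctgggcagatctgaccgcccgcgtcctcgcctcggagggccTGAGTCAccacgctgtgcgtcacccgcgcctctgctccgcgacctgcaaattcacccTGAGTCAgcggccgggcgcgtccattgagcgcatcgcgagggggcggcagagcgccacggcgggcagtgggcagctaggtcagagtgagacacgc
Acod1: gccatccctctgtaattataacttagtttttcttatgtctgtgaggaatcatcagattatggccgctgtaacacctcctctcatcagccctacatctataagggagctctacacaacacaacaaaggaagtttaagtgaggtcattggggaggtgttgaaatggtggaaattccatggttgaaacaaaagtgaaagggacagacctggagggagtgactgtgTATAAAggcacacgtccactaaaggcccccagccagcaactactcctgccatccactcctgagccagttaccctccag

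Over all genes with exactly 1 such window, GGGNNNTTC stood in 20 of 93 windows (21.5%) of genes that rose at least 2-fold, in 10 of 56 (17.9%) of genes that fell at least 2-fold, in 15.1% of 8291 windows of tested genes and in 14% of all 22862 windows of the table. TGANTCA stood in 11.8% of the windows of risen genes, 3.6% of fallen genes, 5.1% of tested genes and 8.0% of all windows. For TATAAA the shares were 20.4%, 8.9%, 7.7% and 14.8%, and for TGACGTCA, the cyclic AMP response element, which holds no TGANTCA, they were 6.5%, 5.4%, 3.1% and 1.9%. The CArG box was rare, in 2.2%, 1.8%, 1.4% and 1.5%. Both strands were searched. The median ratio of observed to expected CpG was 0.65 in windows of risen genes, 0.71 in those of fallen genes and 0.76 in those of tested genes.

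Metabolic transcripts changed in both directions. Hilpda, which inhibits lipid droplet lipolysis, had 1028.9 and 1057.9 units in WT LPS 1 h, against 238.9 and 225.8 in WT unstimulated (2.15 ± 0.13, limma adjusted p = 1.64e-09), and was lower in WT LPS 4 h than in WT LPS 1 h (-1.38, limma adjusted p = 3.86e-07). The glucose transporter Slc2a1 rose by 0.67 ± 0.10 and hexokinase Hk2 by 0.64. Txnip, an arrestin-like protein that removes glucose transporters from the membrane and binds thioredoxin, had 1145.4 and 1166.7 units, against 3555.2 and 3390.0 (-1.58 ± 0.12, limma adjusted p = 5.36e-08), and a further probe set gave -2.04. Asns, asparagine synthetase, had 700.9 and 760.5 units, against 1128.4 and 1153.2 (-0.64 ± 0.10, limma adjusted p = 0.000283), and Phgdh, the first enzyme of serine synthesis, had 75.7 and 61.9, against 125.6 and 166.6 (-1.03 ± 0.21, limma adjusted p = 0.00481), the Phgdh call not holding in every fit with 1 array left out. In the list of nutrient uptake and biosynthesis as a whole, 4 of 52 genes rose and 7 fell (median 0.05), against 3.21% of all genes higher and 3.84% lower, and the count lower was 4 without WT LPS 1 h replicate 2 and 3 without either WT unstimulated array. Phgdh was higher in WT LPS 4 h than in WT LPS 1 h (2.22, limma adjusted p = 3.69e-07).

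**Figure D2:**
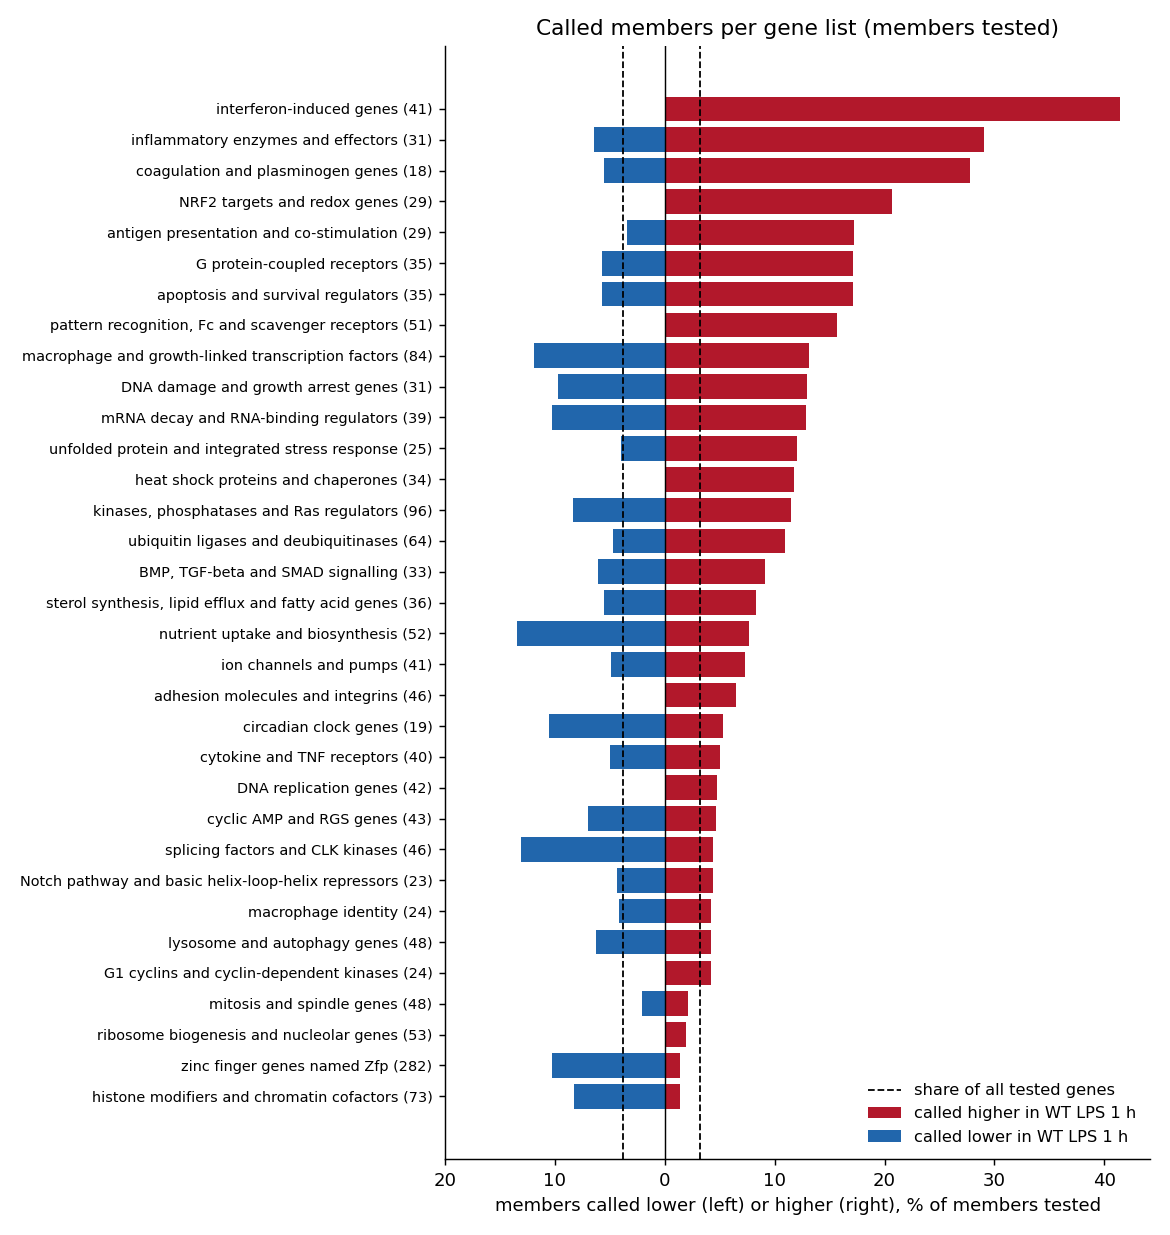
Share of the tested members of each gene list (rows, number tested in brackets) that was called higher (bars to the right) or lower (bars to the left) in WT LPS 1 h than in WT unstimulated, in percent; dashed lines mark the shares of all genes, 3.21% and 3.84%. The 4 known lists, with immediate early genes at 25 of 33 higher, and the ribosomal protein list are not drawn. Also left out are the actin cytoskeleton list and the cell type marker lists other than macrophage identity. The lists made after the values were seen (Zbtb and related names, YAP and TEAD) are not drawn either. Among the lists drawn, interferon-induced genes, with 17 of 41 higher, stand at the top. The Zfp list, with 4 of 282 higher and 29 lower, stands near the bottom.

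Genes of cell survival, cell structure and coagulation changed as well. Of 35 apoptosis genes 6 rose and 2 fell, and of 18 coagulation and plasminogen genes 5 rose and 1 fell, against 3.21% of all genes higher and 3.84% lower. Marcksl1, which binds actin and membrane phospholipids, had 4755.0 and 5294.3 units in WT LPS 1 h, against 1143.4 and 1020.7 in WT unstimulated (2.21 ± 0.10, limma adjusted p = 9.84e-12). Cdc42ep2, an effector of Cdc42, rose by 1.78 and Ehd1, of endocytic recycling, by 1.23. The pro-apoptotic Bcl2l11 (Bim) rose by 0.90, the urokinase receptor Plaur by 1.10, and thrombomodulin (Thbd), which turns thrombin to an anticoagulant, fell by 0.79. Cd200r1, an inhibitory receptor of myeloid cells, had 293.5 and 218.9 units, against 669.8 and 516.9 (-1.20 ± 0.18). Without WT LPS 1 h replicate 2 the apoptosis and coagulation genes higher each numbered 2, and without WT unstimulated replicate 2 likewise; without WT LPS 1 h replicate 1 the apoptosis genes higher numbered 3.

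Among the decreases Tnfrsf11b, which encodes osteoprotegerin, the decoy receptor that binds the osteoclast factor RANKL, had 42.0 and 29.5 units in WT LPS 1 h, against 309.8 and 251.4 in WT unstimulated. The log2 difference was -2.84 ± 0.26 (limma adjusted p = 6.02e-07), but a dimmer second probe set gave -0.72 ± 0.80. Ret, the receptor tyrosine kinase for ligands of the GDNF family, had 24.5 and 21.6 units, against 124.9 and 122.1 (-2.22 ± 0.25, limma adjusted p = 7.68e-06), with -0.13 at its second probe set. For both genes the probe set that fell showed no overlap between the groups, as did all 911 called genes, and the other probe set was not called. Zkscan8, a SCAN-domain zinc finger protein, had 98.7 and 74.2 units in WT LPS 1 h, against 268.3 and 266.6 in WT unstimulated (-1.59 ± 0.18, limma adjusted p = 1.29e-05). The uncharacterised transcripts 9330175E14Rik (-1.80 ± 0.30) and AA386476 (-1.72 ± 0.28) and the WD-repeat gene Wdr38 (-1.84 ± 0.28; 0.29 at a dimmer probe set) fell in every fit with 1 array left out. Of the 20 largest decreases outside the known lists, 11 did so, and Nkain4 (-2.35), 4930404N11Rik (-1.94), Htr1b (-1.62) and Fhl1 (-1.58) were among the 9 that did not.

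**Figure D3:**
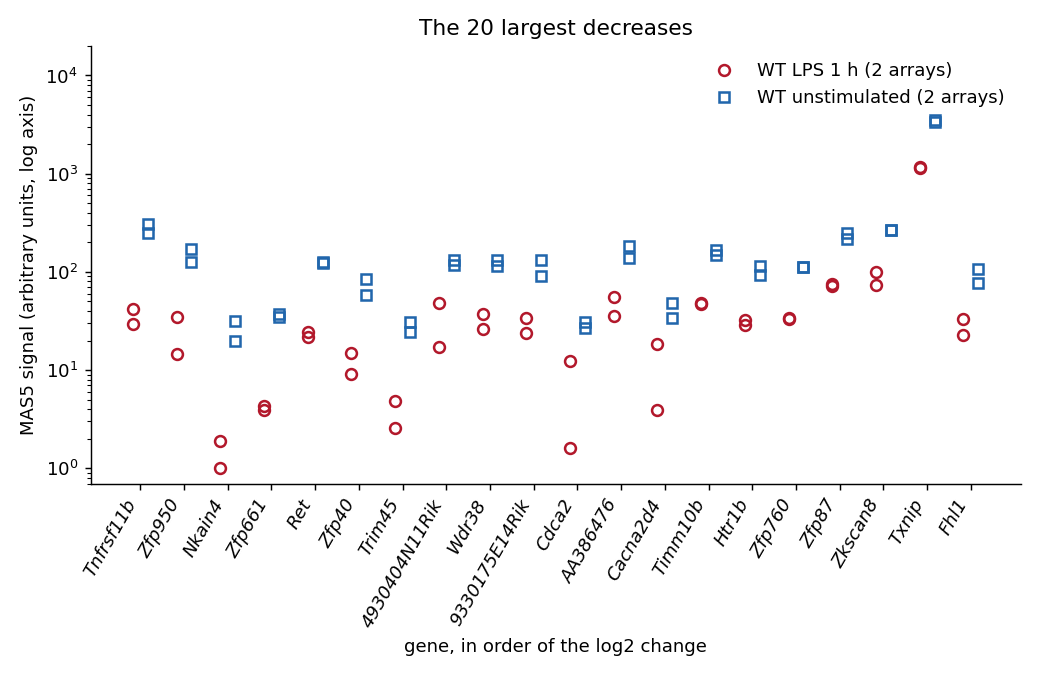
Signal (y axis, arbitrary units, log scale) of the 20 largest decreases outside the known lists (x axis, in order of the log2 difference); circles are the 2 WT LPS 1 h arrays and squares the 2 WT unstimulated arrays. Only genes whose groups do not overlap were eligible. Txnip, at 1145.4 and 1166.7 units in WT LPS 1 h against 3555.2 and 3390.0 in WT unstimulated, is far brighter than the rest.

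Genes with Zfp symbols, most of which encode DNA-binding proteins of the Cys2-His2 zinc finger class, made up 29 of the 496 decreases. Set apart from the mRNA-binding Zfp36 family, 279 were tested, of which 29 (10.4%) fell and 2 rose, against 3.84% of all genes lower and 3.21% higher; no test of the list was made. Their median log2 difference was -0.32, against -0.03 over all genes, and 211 (75.6%) lay below 0, against 53.2% of all genes. The 29 fell by between 0.39 and 2.47. Zfp87 had 75.9 and 72.3 units in WT LPS 1 h, against 251.3 and 216.9 in WT unstimulated (-1.60 ± 0.18, limma adjusted p = 1.25e-05), and Zfp760 had 33.9 and 33.4, against 111.4 and 111.3 (-1.61 ± 0.29, limma adjusted p = 0.00183). Zfp329 had 246.7 and 199.7 units, against 469.4 and 546.0 (-1.17 ± 0.16, limma adjusted p = 0.000101). With Zfp950, Zfp763, Zfp955a and Zfp217 these were the 7 called lower in all 12 fits with 1 array left out. The exceptions among the increases were Zfp703 (1.19) and Zfp263 (0.85).

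Zfp genes are dim, so the same values were set against other genes of like signal. With the tested genes cut by mean signal into 4 bins of equal size, 11 of 31 Zfp genes fell in the brightest bin, against 8.51% of the 3195 others, and the medians were -0.35 and 0. In the next bins down, 9 of 61 fell, against 4.55% of 3167 others, and 8 of 116, against 1.51% of 3112 others. In the dimmest bin 1 of 71 was called lower, against 0.13% of 3158 others, with medians of -0.40 and 0.01. The Zfp median thus lay below that of the other genes in each bin of signal. Over 22 settings, among which the mean of all probe sets of a gene was not, the Zfp median lay between -0.37 and -0.25. Most of these settings, such as leaving out a KD array or changing the variance prior, cannot move it, so their number shows no stability. Leaving out 1 of the 4 arrays compared gave -0.34, -0.27, -0.33 and -0.37. Quantile normalization gave -0.27 and the pseudocount at the median signal -0.25. Fewer Zfp genes, and fewer of all genes, were called lower without WT LPS 1 h replicate 2 or either WT unstimulated array. With a variance prior that did not follow mean signal 11 were called lower, against 0.76% of all genes. In WT LPS 4 h, set against the same WT unstimulated arrays, the median was -0.24 (all genes -0.16), and 25 Zfp genes (9.0%) were lower, against 12.9% of all genes, and 9 (3.2%) higher, against 7.56%, so the share lower was not above that of all genes. Other zinc finger repressor names (Zbtb, Zkscan, Zscan and Zik) formed a list made after these values were seen. Of 53 tested, 10 were lower and none higher in WT LPS 1 h, against 3.84% and 3.21% of all genes. Their median was -0.23, and Zbtb26 (-1.49) and Zbtb14 (-0.91) were among those lower. In WT LPS 4 h against WT unstimulated, 9 of the 53 were lower and 2 higher, against 12.9% and 7.56% of all genes. The share lower of this list at 4 h was thus above that of all genes, while its median was -0.1 (all genes -0.16).

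**Figure D4:**
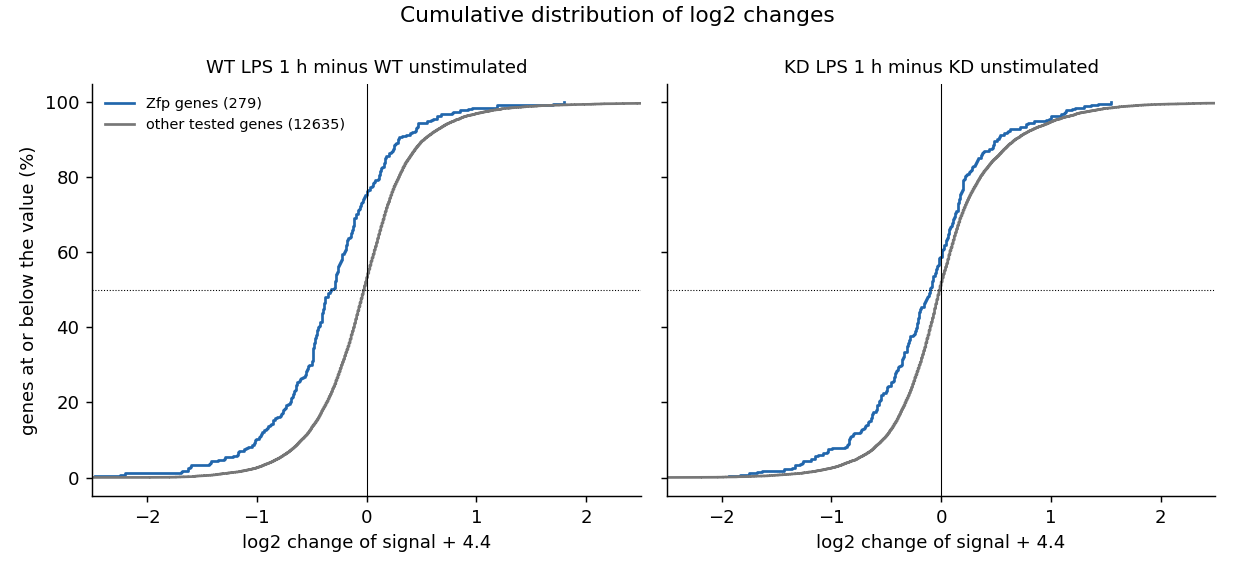
Cumulative share of genes (y axis, percent) at or below each log2 difference (x axis) for 279 Zfp genes and the 12635 other genes tested, in WT LPS 1 h minus WT unstimulated (left) and KD LPS 1 h minus KD unstimulated (right). In WT the Zfp curve lies left of the other and crosses 50% at -0.32, and in KD it crosses at -0.10.

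Genes were called lost where they fell from above the array median on both WT unstimulated arrays to at or below it on both WT LPS 1 h arrays, and 6 met this. Zfp40 had 14.9 and 9.2 units in WT LPS 1 h, against 58.3 and 83.7 in WT unstimulated (-2.20 ± 0.42, limma adjusted p = 0.00284), and Zfp661 had 3.9 and 4.3, against 34.6 and 37.4 (-2.25 ± 0.65, limma adjusted p = 0.046). Zfp54 had 20 and 17 units, against 46.4 and 57.5 (-1.30 ± 0.34). The remaining 3 were Trim45 (-1.98 ± 0.47), a ubiquitin ligase, Cdca2 (-1.73 ± 0.50), which targets phosphatase 1 to chromosomes, and Cacna2d4 (-1.70 ± 0.47), a calcium channel subunit. None of the 6 was called in all 12 fits with 1 array left out, and leaving out the first or the second WT LPS 1 h replicate gave counts of 25 and 18, while leaving out either WT unstimulated array gave 1. By the mirrored rule 19 genes were gained, 14 of them called in all 12 fits. Besides Olr1, Mir155hg, Arid5a and Socs3, which was below the array median in WT unstimulated at 1 of its 3 probe sets, they included Il6, with 40.6 and 63.2 units, against 0.9 and 0.6, and the AP-1 subunit Fosb, with 54.9 and 84.5, against 1.9 and 0.9.

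Some genes of nuclear RNA processing and chromatin fell. Of 46 splicing genes 2 rose and 6 fell (median log2 difference 0.04), and of 73 chromatin genes 1 rose and 6 fell (median -0.02), against 3.21% of all genes higher and 3.84% lower. Luc7l3, a factor of the U1 snRNP, had 1282.5 and 1335.3 units in WT LPS 1 h, against 2479.8 and 2370.2 in WT unstimulated (-0.89 ± 0.10, limma adjusted p = 8.91e-06), with -0.83 at a second probe set, and was higher in WT LPS 4 h than in WT LPS 1 h (1.00, limma adjusted p = 6.5e-07). Neat1, the long non-coding RNA scaffold of paraspeckles, had 761.6 and 704.7 units, against 1486.0 and 1845.2 (-1.17 ± 0.18, limma adjusted p = 0.000294). Phf13, a reader of trimethylated histone H3 lysine 4, had 378.1 and 397.4 units, against 832.8 and 734.0 (-1.0 ± 0.14). Pnisr, a nuclear speckle protein, fell by 0.50, while the splicing factor Srsf5 rose by 0.76. For the chromatin genes Chd1 (-0.85) and Brd3 (-0.77) other probe sets disagreed. The chromatin count lower was 3 without either WT LPS 1 h array and without WT unstimulated replicate 2. Mir22hg, the host of miR-22, rose, with 646.5 and 561.6 units, against 293.8 and 312.5 (0.98 ± 0.13, limma adjusted p = 9.82e-05).

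The other programmes moved little or in both directions. Of 29 genes of antigen presentation and co-stimulation 5 rose and 1 fell, against 3.21% of all genes higher and 3.84% lower, with Cd83, a co-stimulatory molecule, higher by 2.07; the count higher was 3 without WT unstimulated replicate 2. Of 31 genes of DNA damage and growth arrest 4 rose and 3 fell, among them the stress genes Gadd45a (1.5) and Gadd45b (1.31) and the kinase Plk2 (0.99). Of 25 genes of the unfolded protein and integrated stress responses 3 rose and 1 fell, with Ppp1r15a, which recruits phosphatase 1 to eIF2α, higher by 1.87. Of 34 heat shock proteins and chaperones 4 rose and none fell, with Dnajb4 at 0.89. Genes of growth and division were mostly not called: 1 of 53 ribosome biogenesis genes rose (Gnl3, a nucleolar GTPase, 0.78), 2 of 42 DNA replication genes rose, 1 of 48 mitosis genes rose and 1 fell, 1 of 24 G1 cyclin genes rose and 1 of 43 ribosomal protein genes fell. In each of these lists of growth and division the share called lay below that of all genes, 7.05%. Of 33 genes of BMP and TGF-β signalling 3 rose and 2 fell, of 36 genes of sterols and fatty acids 3 and 2, of 41 ion channels and pumps 3 and 2, of 40 cytokine and TNF receptors 2 and 2, of 43 genes of cyclic AMP and RGS proteins 2 and 3, of 48 lysosome and autophagy genes 2 and 3, of 46 adhesion molecules 3 and none, of 23 Notch pathway genes 1 and 1, and of 19 clock genes 1 and 2.

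Some genes of matrix and growth control, better known from adherent stromal cells, fell. Of 31 targets and partners of the YAP and TEAD factors, 6 fell and 2 rose (median log2 difference -0.23), against 3.21% of all genes higher and 3.84% lower. The list was made after these values were seen, so its shares are a description only. In WT LPS 4 h against WT unstimulated, 3 (9.7%) were lower and 3 (9.7%) higher (median -0.04), against 12.9% and 7.56% of all genes. Ccn4, a matricellular protein, had 164.3 and 157.0 units in WT LPS 1 h, against 396.2 and 416.0 in WT unstimulated (-1.31 ± 0.18, limma adjusted p = 7.46e-05), and Crim1, a membrane protein that binds BMPs, had 172.2 and 126.0, against 409.1 and 364.4 (-1.36 ± 0.20, limma adjusted p = 0.000208). Ankrd1 had 74.1 and 49.2 units, against 171.1 and 131.7 (-1.25), and Ajuba (-1.14), Amotl2 (-0.97) and Limd1 (-0.52) completed the count. Outside the list, the LIM protein Fhl2 fell by 1.16, the metalloproteinase inhibitor Timp3 had 257.9 and 211.2 units, against 436.8 and 469.3 (-0.94 ± 0.15), and the growth factor Pdgfa had 752.7 and 862.5, against 1588.9 and 1369.2 (-0.87 ± 0.12). Of 13 stromal markers 1 rose and none fell: Col1a1 had 1419.7 and 1361.1 units in WT LPS 1 h, against 1451.1 and 1380.0 in WT unstimulated, and Sparc, the 1 that rose, 2058.8 and 2085.3, against 1633.0 and 1537.3. The part of stromal cells in these decreases and in that of Tnfrsf11b was not tested.

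No KD array was among those compared in WT, but the arrays of all groups entered the variance estimated for each gene. The KD arrays gave the same measure in cells whose IRAK4 lacks kinase activity. Time in culture was unmatched there too, 1 h in KD LPS 1 h and 4 h in KD unstimulated. A sign shared by the strains therefore cannot tell LPS from time in culture. There, 467 genes (3.62%) were higher and 383 (2.97%) lower in KD LPS 1 h than in KD unstimulated. Of the 415 genes higher in WT, 361 (87.0%) had the same sign in KD and 202 (48.7%) were called higher, against the 3.62% of all genes. Of the 496 lower in WT, 428 (86.3%) had the same sign and 173 (34.9%) were called lower, against 2.97%. Because the variance was shared, a gene of low variance is more readily called in both strains. The shares called in KD are thus not independent of the WT calls, while the signs in KD rest on the KD arrays alone. The difference between the strains in the 1 h answer was called for 22 of the 415 and 10 of the 496, against 0.418% of all genes. These genes were chosen on the WT answer, which enters that difference, so a share above that of all genes was built in. Among changes of at least 2-fold, 146 of 151 increases and 84 of 96 decreases had the same sign in KD. The median of the 151 increases was 1.68 in WT and 1.35 in KD, and that of the 96 decreases was -1.26 in WT and -0.69 in KD. Because the genes were chosen by their WT values, medians of smaller size in KD do not by themselves show a weaker answer there.

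Gene by gene, the WT answer differed from that of KD for Arg2 (1.41 in WT, 0.34 in KD, limma adjusted p of the difference = 0.0192) and for Ptgs2 (1.30 in WT, 2.02 in KD). The difference did not pass for Socs3 (4.81 in WT, 3.19 in KD, adjusted p = 0.179 in limma), Nlrp3 (3.75 in WT, 2.61 in KD, 0.10) and Mefv (2.74 in WT, 0.19 in KD, 0.0936), whose answers were smaller in KD. Nor did it pass for Pde4b, where KD minus WT was 0.12 ± 0.15 (SE), Pim1 (0.24 ± 0.13), Txnip (0.16 ± 0.17), Map3k1 (0.17 ± 0.20), Luc7l3 (-0.16 ± 0.14), Neat1 (-0.16 ± 0.25) or Asns (0.03 ± 0.14). These 7 genes had the same sign in both strains. Of the 29 Zfp genes lower in WT, 24 were below 0 in KD and 8 were called lower there, against 2.97% of all genes. Their median was -0.85 in WT and -0.53 in KD. These 29 too were chosen by their WT values. The median of all 279 was -0.32 in WT and -0.10 in KD. The 31 YAP and TEAD targets and partners had a median of -0.23 in WT and 0.05 in KD. In KD 1 was lower and 3 were higher, against 2.97% and 3.62% of all genes. Of 13 stromal markers 7 were called higher in KD LPS 1 h than in KD unstimulated (median 0.76), against 3.62% of all genes. Called in opposite directions were Uqcc2, Cnih4 and Scarf1, higher in WT, and Smndc1, lower in WT. Scarf1, a scavenger receptor, had 54.6 and 49.5 units in WT LPS 1 h, against 23.4 and 4.0 in WT unstimulated (1.88), and 6.3 and 6.6 units in KD LPS 1 h, against 58.4 and 25.5 in KD unstimulated (-2.0). The increase of Scarf1 in WT was called in 5 of 12 fits with 1 array left out.

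**Figure D5:**
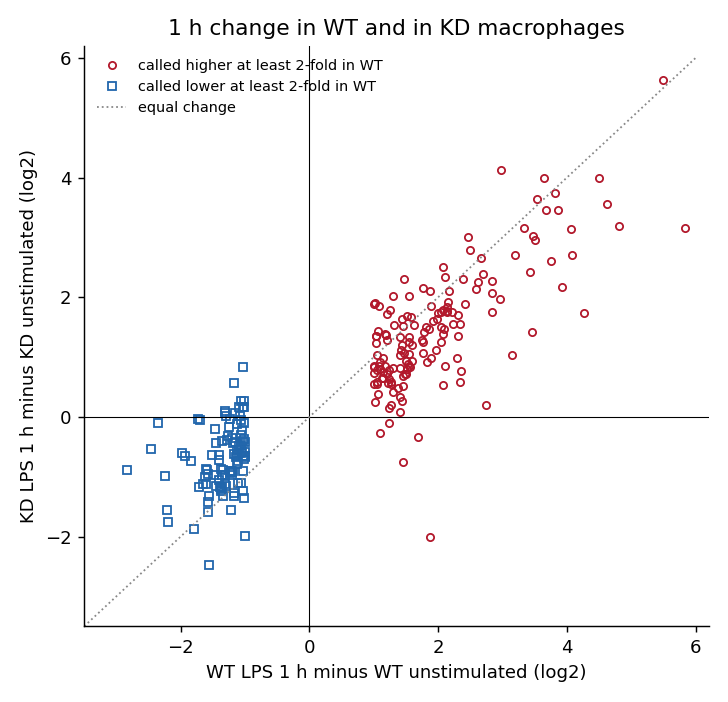
Log2 difference at 1 h against unstimulated in KD (y axis) and in WT (x axis) for the genes called with a change of at least 2-fold in WT; each circle (151 higher) or square (96 lower) is 1 gene and the dotted line marks equal differences. The same sign was seen in KD for 146 of 151 and 84 of 96, and Scarf1 is the lowest circle.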

How the data were processed

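Labelled RNA of macrophages was hybridised to 12 arrays, 1-colour 3′ expression arrays with 45101 probe sets. The deposited values are MAS5 signal intensity on a linear scale, 1 column per array, per the submitters' processing notes; the sources used here state neither version nor scaling target, but the authors' values have a trimmed mean of 150 on each array (2% trimmed at each end). Depth does not apply to arrays, and their number limits the precision.

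Values were not normalized again. Signals were taken as log2(signal + 4.4), the pseudocount being the 20th percentile of all values. After 64 controls were dropped, 27931 probe sets that exceeded the median of the array on 2 or more arrays were kept, and 1 mean per group was fitted over all 12 arrays with limma 3.58.1 in R 4.3.3 (eBayes with a trend), with Benjamini-Hochberg adjustment over all probe sets and calls at adjusted p under 0.05. Symbols came from the platform annotation (34958 probe sets with 1 symbol, 932 with several, 9211 with none). A gene was represented by its brightest tested probe set without a cross-hybridisation suffix where one existed. The genes named were the 15 largest increases and 20 largest decreases outside the known lists, among called genes whose groups did not overlap. Named as well were the 4 largest changes of each list, and genes lost or gained, with others picked after their values were seen. The comparison's lists and members were chosen with earlier results of these data known. A gene list is not reported here. The fitting steps were tested on simulated data. Same-numbered arrays were checked for pairing and share only a number. Alternatives were the pseudocount, the filter, quantile normalization, the variance prior, the arrays fitted, the mean of all probe sets, a replicate block and leaving out each array.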

Additional observations from a re-analysis of the deposited data

Results flagged for a closer look

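Tnfrsf11b is listed because its 1 h answer differed between the strains by a test of the difference itself. It had 42.0 and 29.5 units in WT LPS 1 h, against 309.8 and 251.4 in WT unstimulated, and 76.0 and 71.8 units in KD LPS 1 h, against 185.4 and 106.3 in KD unstimulated. The log2 difference at 1 h was -2.84 ± 0.26 in WT and -0.89 ± 0.26 in KD, and the KD response minus the WT response was 1.95 ± 0.37 (SE, limma adjusted p = 0.0249). The arrays of the groups did not overlap in either strain, but the KD difference on its own did not pass the test (limma adjusted p = 0.0527). The KD unstimulated arrays lay below the WT unstimulated arrays.

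The strain difference also passed the test for 7 other genes named for their WT change or for opposite calls in the strains. For Arg2 the KD response minus the WT response was -1.07, with 703.9 and 800.1 units in WT LPS 1 h, against 290.1 and 267.9 in WT unstimulated, and 254.1 and 308.7 units in KD LPS 1 h, against 217.9 and 221.6 in KD unstimulated. For Ptgs2 it was 0.73, with 4152.2 and 4243.9 units in KD LPS 1 h, against 1073.7 and 984.8 in KD unstimulated. Its KD arrays lay below the WT arrays of the same treatment, both unstimulated and at LPS 1 h. The larger KD difference thus went with a lower unstimulated signal and not with a higher signal at LPS 1 h. For Il1b the KD response minus the WT response was -2.68, with 334.0 and 372.2 units in KD LPS 1 h, against 30.8 and 41.6 in KD unstimulated. This difference was -1.02 for Uqcc2, -1.05 for Cnih4 and -3.88 for Scarf1, which were higher in WT and lower in KD at 1 h. It was 0.83 for Smndc1, which was lower in WT and higher in KD. The calls in WT held in 8 of 12 fits with 1 array left out for Uqcc2, 10 for Cnih4, 5 for Scarf1 and 12 for Smndc1.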

How the results depend on the processing

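Of 145 named genes called, 93 were called in all 12 fits with 1 array left out and 71 under every alternative that gave them a value, some dim genes having none under the stricter filter. With the mean of all probe sets of a gene the direction turned for Brd3 (0.04), Nrp1 (-0.56), Rbm25 (0.24) and Il10ra (-0.01), and with no filter for Socs2 (0.39); the cause was not tested. With a variance prior without a trend, 487 probe sets were called (290 higher, 197 lower), and 93 genes higher and 31 lower in WT were also called in KD. Genes lost numbered 2 in the 4 WT arrays alone, 0 with the 75th percentile filter (which tests fewer dim genes) and 2 with no filter, and genes gained numbered 11 with the 75th percentile filter. Over the fits with 1 array left out, probe sets called ranged from 739 to 1932 (higher 425 to 925, lower 314 to 1010), genes lost from 1 to 25, gained from 15 to 27, and those also called in KD from 150 to 198 (higher) and from 77 to 143 (lower). Counts per gene list kept within 1.5 times in 1292 cases and moved further in 248. With the replicate number as a block, 400 genes were higher and 469 lower; same-numbered arrays correlated between -0.068 and 0.04 over 15 pairs, and 0 pairs exceeded 0.1. Fits of the WT arrays alone give no KD counts, and the mean of all probe sets gives no count of probe sets. Signal over background limits the dim genes: 12 of the 911 calls lay in the dimmest of 4 equal bins of mean signal.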
